A study of Mus musculus with 16 samples.

Results

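Fc gamma receptors bind the constant part of IgG on the surface of myeloid cells. The 6 genes described here are the 3 activating receptors Fcgr1, Fcgr3 and Fcgr4, the inhibitory receptor Fcgr2b, the signalling chain Fcer1g and the neonatal receptor Fcgrt, taken by name from the 18580 mouse genes found in the series. RNA was sequenced by SMART-seq2, which copies full-length mRNA, from cells sorted from the brains of WT (C57BL/6N) mice and of littermates lacking CD163 (CD163KO, the allele CD163tm1.1(KOMP)Vlcg), a scavenger receptor of macrophages. All mice, 12 weeks old at surgery, had received murine α-syn into both striata, either as monomers (MONO) or as pre-formed fibrils (PFF), and were killed 2 months later, so no untreated group enters these comparisons. Microglia were sorted as CD11b+ cells with low or intermediate CD45 and macrophages as CD11b+ cells with high CD45, a gate that by the study's methods also holds infiltrated macrophages, neutrophils and NK cells. Each of the 8 combinations of sex, genotype and treatment held between 4 and 7 mice and gave 1 table per population, 16 libraries in all, and the sources used here do not say whether a table is 1 of the sequenced triplicates or their pool.

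FcγRI (Fcgr1) is the high-affinity IgG receptor, and FcγRIII (Fcgr3) and FcγRIV (Fcgr4) bind immune complexes. All of these signal through the chain Fcer1g, whose activation motif recruits the kinase Syk and leads to phagocytosis. FcγRIIB (Fcgr2b) carries an inhibitory motif that recruits the phosphatase encoded by Inpp5d, so the balance between the activating receptors and Fcgr2b is used as a measure of how readily a cell answers to IgG. FcRn (Fcgrt) works inside cells, where it pairs with β2-microglobulin and returns IgG to the surface. Before sorting, the cells had been incubated with the antibody clone 2.4G2, which binds the proteins encoded by Fcgr3 and Fcgr2b.

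Fcgr2b, Fcgr4, Fcgr3 and Fcer1g lie on chromosome 1 (GRCm38), at 170960558 to 170976071, 171018926 to 171029761, 171051169 to 171065915 and 171229572 to 171234349. Fcgr1 lies on chromosome 3, at 96282909 to 96293969, and Fcgrt on chromosome 7, at 45092993 to 45103822. Fcgr2b and Fcgr3 are near-identical over part of their coding sequence, and this bears on the ratio between them. Of 830 stretches of 50 bases in the Fcgr2b coding sequence, 166 (20.0%) are also in Fcgr3, whereas Fcgr1 and Fcgr4 hold 0 of them. The longest shared run, 129 bases in capitals, is shown with the flanking coding bases of each gene:
Fcgr2b: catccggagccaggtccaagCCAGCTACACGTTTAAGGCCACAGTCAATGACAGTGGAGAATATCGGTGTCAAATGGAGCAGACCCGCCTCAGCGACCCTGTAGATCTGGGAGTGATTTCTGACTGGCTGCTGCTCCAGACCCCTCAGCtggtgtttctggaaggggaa
Fcgr3: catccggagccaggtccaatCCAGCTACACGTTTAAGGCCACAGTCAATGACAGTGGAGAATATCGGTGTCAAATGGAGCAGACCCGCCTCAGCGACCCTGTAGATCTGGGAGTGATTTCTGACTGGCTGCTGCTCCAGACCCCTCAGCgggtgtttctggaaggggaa
The estimated counts carry the trace of this identity. Fcgr1, Fcgr4, Fcer1g and Fcgrt had whole counts (within 0.03) in 16 of 16 libraries, Fcgr2b and Fcgr3 each in 2 of 16, and the sum of Fcgr2b and Fcgr3 in 16 of 16. Reads were thus divided between these genes by estimation, and their separate levels are less certain than those of the other members.

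Fcgr2b was listed as a longer and a shorter transcript, which differ by 1 coding exon of 141 bases in the part that encodes the cytoplasmic tail. The longer form is known from B cells and the shorter one from myeloid cells. The exon (exon 6, chr1:170963325-170963465, minus strand, GRCm38) is in capitals, with the coding bases on either side in lower case:
Fcgr2b longer transcript: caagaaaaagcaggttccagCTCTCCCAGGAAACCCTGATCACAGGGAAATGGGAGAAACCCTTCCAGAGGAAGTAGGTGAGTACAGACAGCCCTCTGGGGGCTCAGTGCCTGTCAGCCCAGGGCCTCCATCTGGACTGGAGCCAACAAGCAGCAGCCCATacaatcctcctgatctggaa
Fcgr2b shorter transcript: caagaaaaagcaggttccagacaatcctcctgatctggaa

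Libraries held between 8648751 and 21433841 estimated counts. Homeostatic microglia markers summed to between 78500 and 303451 FPKM in microglia and to between 7606 and 12117 in macrophages, and border-associated macrophage markers to between 29.4 and 173 against 1669 and 4854, so each population held the markers of its label. Cst3 made up most of the homeostatic sums, at 60306 to 261156 FPKM in microglia and 6657 to 11289 in macrophages. The median homeostatic marker was at 855 to 1269 FPKM in microglia and 23.6 to 87.7 in macrophages. In the macrophage gate, 12 neutrophil markers summed to between 22182 and 134672 FPKM, against 1057 to 2876 in microglia, and their part in the results on the 6 genes was not tested. Both male WT PFF libraries and both male CD163KO MONO libraries, the latter excluded by the study, stood apart: Pearson's r of log2(FPKM + 1) with the 6 other macrophage libraries was between 0.65 and 0.67 and between 0.72 and 0.75, against 0.90 to 0.94 among those 6, and the 10 highest genes took 70.0% and 60.6% of the FPKM of their microglia libraries, against at most 26.1% in the others. By r alone, the microglia libraries did not stand apart. Their r with the 6 other microglia libraries was 0.84 to 0.90 and 0.85 to 0.91, against 0.85 to 0.97 among those 6. The microglia library labelled female CD163KO MONO held 799 counts of Y-linked genes, against at most 2 in the other female libraries, and is named by its label throughout. Male WT PFF and male CD163KO MONO microglia were each other's nearest match among microglia (r = 0.97), as were female WT PFF and male CD163KO PFF microglia (r = 0.97), and whether any labels were exchanged was not tested. Cd163 itself had 748 to 5275 estimated counts in WT and 0 to 1 in CD163KO macrophages, but 0 to 101 in WT and 5 to 23 in CD163KO microglia, so that it did not mark the genotype there. Main fits therefore leave out the male CD163KO MONO libraries, and results on the 6 genes that rest on the male WT PFF libraries are given with and without them.

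Fcgr3 and Fcer1g had the highest median levels of the 6 genes in both populations. FPKM (counts scaled to transcript length and to library total) allow levels to be set side by side between genes. In macrophages, the order of median FPKM was Fcer1g, Fcgr3, Fcgr2b, Fcgrt, Fcgr4 and Fcgr1, with the ranges of Fcer1g and Fcgr3 and those of Fcgr4 and Fcgr1 overlapping. In microglia, the order was Fcgr3, Fcer1g, Fcgr2b, Fcgr1, Fcgrt and Fcgr4, with the ranges of Fcgr3 and Fcer1g overlapping, as did those of Fcgr1 and Fcgrt and, through the male WT PFF library, of Fcgrt and Fcgr4. By rank among all genes, Fcer1g stood between 12 and 22 in macrophages and Fcgr3 between 11 and 22 in microglia.

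**Figure D1:**
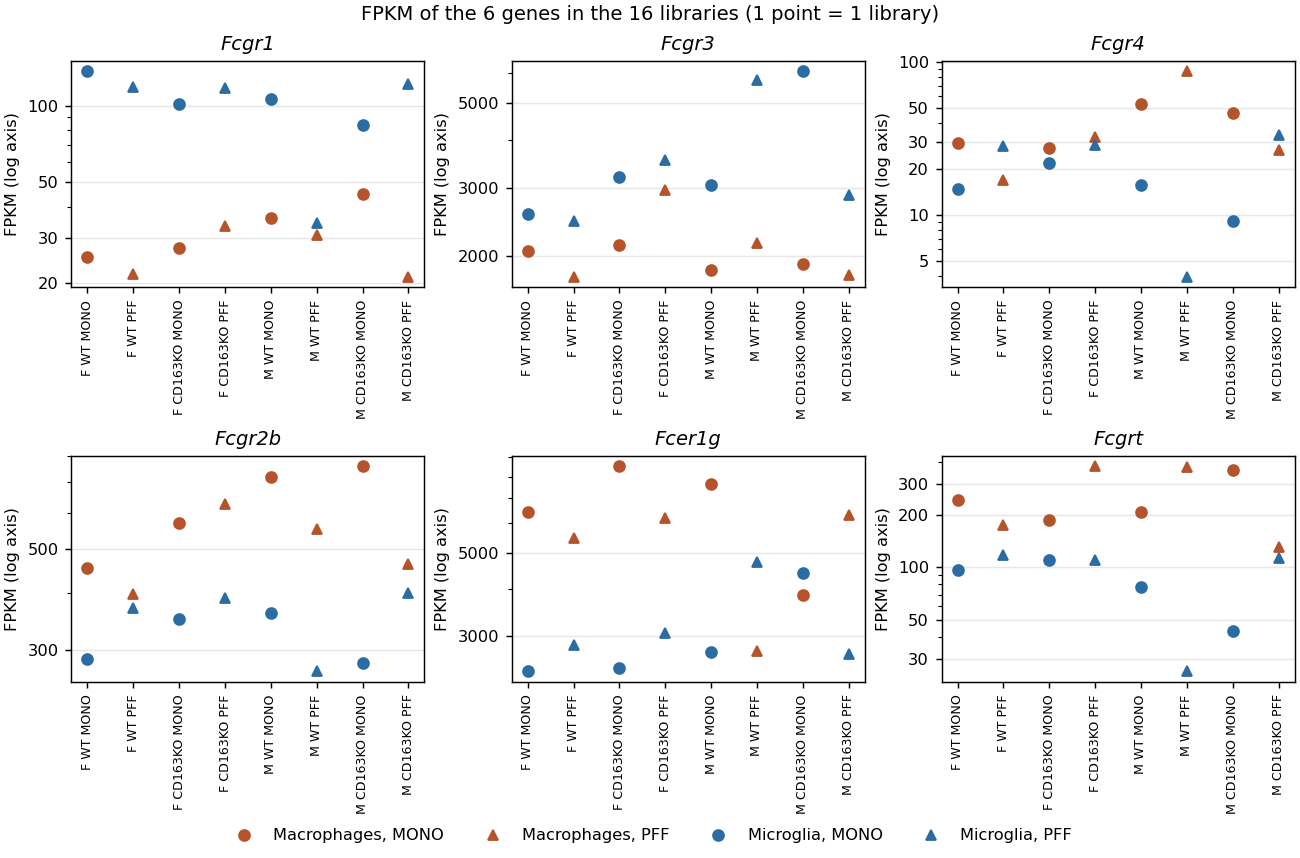
FPKM of the 6 genes on log axes, 1 point for each of the 16 libraries, by combination of sex, genotype and treatment (circles MONO, triangles PFF). Fcgr1 and Fcgr3 are higher and Fcgr2b and Fcgrt lower in microglia than in macrophages in all 8 combinations, and the male WT PFF and male CD163KO MONO microglia are low in Fcgr4 and high in Fcgr3. The share of all genes with one direction in all 8 combinations was not counted.

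Of the activating receptors, Fcgr1 was higher in microglia in each of the 8 combinations, by a median of 3.60-fold in FPKM. It ranged from 21.2 to 45.0 FPKM in macrophages (median 29.3, n = 8) and from 34.5 to 137 FPKM in microglia (median 112, n = 8). The only microglia library within the macrophage range was that of male WT mice given PFF. Without it, the lowest microglia value was 83.7 FPKM (male CD163KO MONO). FPKM are scaled to library totals, and under that scaling the median gene was itself higher in microglia. Its log2 difference was 1.96 in the fit described below. For Fcgr1 and the genes that follow, the share of all genes with one direction in all 8 combinations was not counted.

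Fcgr3 ranged from 1762 to 2971 FPKM in macrophages (median 1978) and from 2468 to 6052 FPKM in microglia (median 3134). The ranges overlapped, although in each of the 8 combinations the microglia library was the higher, by 1.20-fold to 3.18-fold. The highest values, 6052 and 5754 FPKM, came from the male CD163KO MONO and male WT PFF microglia. The other 6 microglia libraries were at 2468 to 3560 FPKM.

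Fcgr4 varied most between libraries, from 17.0 to 87.0 FPKM in macrophages (median 30.9) and from 3.93 to 33.5 FPKM in microglia (median 18.8). The male WT PFF libraries held both extremes, the highest macrophage value and the lowest microglia value, the latter from 88 counts. In 6 of 8 combinations the macrophage library was the higher.

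The inhibitory receptor Fcgr2b ranged from 398 to 760 FPKM in macrophages (median 561) and from 268 to 400 FPKM in microglia (median 355). The ranges met only at their edge, between WT females given PFF (398, macrophages) and CD163KO males given PFF (400, microglia), and the macrophage library was the higher in 8 of 8 combinations. The chain Fcer1g ranged from 2739 to 8535 FPKM in macrophages (median 6267) and from 2411 to 4743 FPKM in microglia (median 2777). In both the male WT PFF and the male CD163KO MONO combination microglia were the higher, and in the other 6 combinations macrophages were. Fcgrt ranged from 130 to 380 FPKM in macrophages (median 224) and from 25.4 to 118 FPKM in microglia (median 103), with no overlap. The lowest microglia value was that of male WT PFF, followed by 43.05 in male CD163KO MONO and 77.6 in male WT MONO. Over all 16 libraries, Fcgrt was the only one of the 6 genes that separated the populations fully in FPKM, where 2.12% of the 13704 genes tested had every microglia value below every macrophage value and 4.27% had every one above.

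The first comparison asked how the populations differ in these genes, with each combination compared with itself in 7 pairs of libraries. Under TMM scaling, Fcgrt, Fcer1g, Fcgr4 and Fcgr2b were lower in microglia than in macrophages, while Fcgr3 and Fcgr1 did not pass. On estimated counts with edgeR's quasi-likelihood test and TMM scaling, the log2 difference (microglia minus macrophages) was -2.81 ± 0.23 (SE) for Fcgrt, with an adjusted p of 9.0e-06. The difference was -2.34 ± 0.29 for Fcgr4 (adjusted p = 0.00018), -2.10 ± 0.40 for Fcgr2b (adjusted p = 0.0030) and -2.74 ± 0.70 for Fcer1g (adjusted p = 0.019). Fcgr3 had a log2 difference of -0.94 ± 0.57 and Fcgr1 of 0.43 ± 0.26, each with an adjusted p of 0.28. In total 4 of the 6 genes passed downward and 0 upward, where 11.6% of the 13704 genes tested passed downward and 6.64% upward.

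Scaling set the size of these differences. The 10 highest genes took a median of 55.3% of the FPKM of a macrophage library and 25.4% of that of a microglia library. With library totals alone, the median difference of all genes moved from 0.37 to 1.96 on the log2 scale, 41.7% of genes passed upward and 4.37% downward, and of the 6 genes Fcgr1 (1.85 ± 0.51, adjusted p = 0.0035) and Fcgr3 (0.64 ± 0.27, adjusted p = 0.048) passed upward. Fcer1g (-1.05, adjusted p = 0.0056) and Fcgrt (-1.36, adjusted p = 0.020) passed downward under this scaling as well, while Fcgr2b (-0.64) and Fcgr4 (-0.80) did not pass. Measured from the median of all genes, the differences were -3.11 and -3.003 for Fcer1g, -3.18 and -3.32 for Fcgrt, -2.71 and -2.76 for Fcgr4, -2.47 and -2.59 for Fcgr2b, -1.31 and -1.32 for Fcgr3, and 0.06 and -0.11 for Fcgr1, with TMM and with library totals. Fcgr3 was thus lower relative to the median gene under both scalings and higher in counts per library total. By the labels, 200000 to 500000 microglia but 10000 to 30000 macrophages went into an RNA sample, a gap that cannot be told apart from the population. In these bulk samples, fewer cells of a type and less RNA per cell cannot be told apart.

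**Figure D2:**
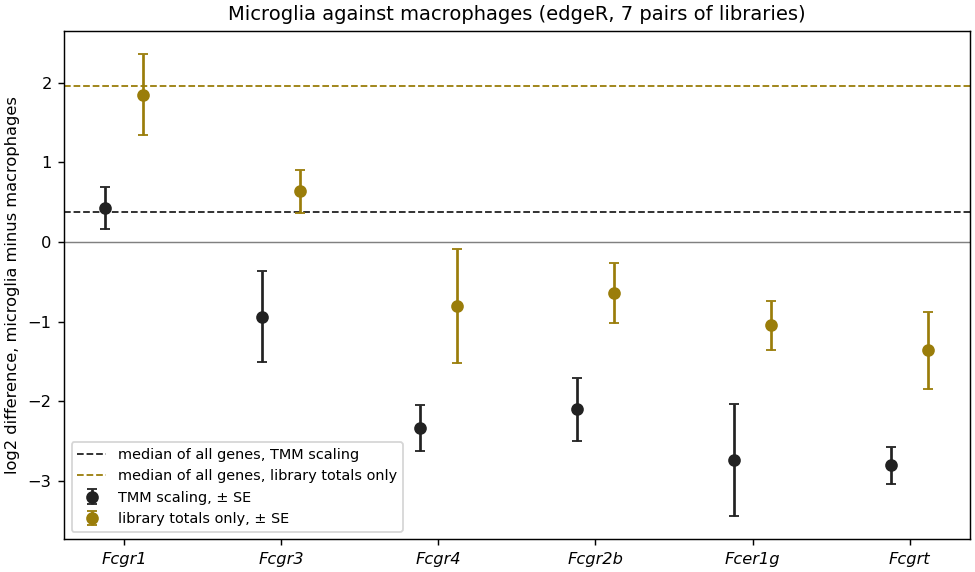
Fitted log2 difference between microglia and macrophages (microglia minus macrophages, ± SE, 7 pairs of libraries) for each gene under TMM scaling and under library totals alone, with the median of all genes under each as a dashed line. Fcgr1 lies close to the median line of its scaling (0.06 from it with TMM and -0.11 with library totals), the 5 other genes lie below theirs, and Fcgr3 changes sign between the scalings.

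Single pairs of libraries decided some of these calls. Without the male WT PFF pair, Fcgr3 passed as well, with a log2 difference of -1.38 and an adjusted p of 0.00047, and 5 of the 6 genes were lower, in a fit in which 19.2% of 13633 genes passed downward. Fcer1g lost its call when any other single pair was left out (adjusted p between 0.057 and 0.066) and when the male CD163KO MONO pair was added (adjusted p = 0.064), with the difference between -2.75 and -2.31 throughout.

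The ratio between the genes within a library does not depend on its scaling, and it separated the populations. The summed FPKM of Fcgr1, Fcgr3 and Fcgr4 divided by that of Fcgr2b ranged from 2.62 to 4.84 in macrophages (median 4.03, n = 8) and from 7.05 to 21.9 in microglia (median 9.49, n = 8), with no overlap. No test was made of this ratio, which is a score over 4 of the 6 genes. Within a combination, the ratio was between 1.56-fold and 8.37-fold higher in microglia (median 2.26-fold). Male WT PFF and male CD163KO MONO microglia had ratios of 21.6 and 21.9, and the other 6 microglia libraries had 7.05 to 9.54.

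Fcgr3 made up between 94.4% and 99.3% of the summed activating receptors, so that the ratio largely followed it. Fcgr3 over Fcgr2b ranged from 2.50 to 4.74 in macrophages and from 6.66 to 21.6 in microglia. Fcgr1 over Fcgr2b separated the populations further, at 0.046 to 0.059 in macrophages and 0.13 to 0.48 in microglia, a median of 5.86-fold within a combination. Without male WT PFF and male CD163KO MONO, the microglia were at 0.29 to 0.48. Fcgr4 over Fcgr2b, in contrast, overlapped, at 0.043 to 0.16 in macrophages and 0.015 to 0.084 in microglia. Without the same combinations it was at 0.043 to 0.074 and 0.044 to 0.084. Many genes separated the populations by their ratio to Fcgr2b, as 13.2% of the 13704 genes tested had every microglia ratio above every macrophage ratio.

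Fcer1g relative to the receptors it serves went the other way. Fcer1g divided by the summed activating receptors ranged from 1.20 to 3.98 in macrophages (median 3.05) and from 0.72 to 1.08 in microglia (median 0.84), with no overlap, where 3.03% of genes had every microglia ratio to the summed receptors below every macrophage ratio. The lowest macrophage values were 1.20 in male WT PFF and 1.94 in male CD163KO MONO. Fcgr4 over Fcgr1 ranged from 0.78 to 2.80 in macrophages (median 1.10, up to 1.48 without male WT PFF and male CD163KO MONO) and from 0.11 to 0.28 in microglia, with no overlap, where 9.35% of genes had every microglia ratio to Fcgr1 below every macrophage ratio.

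**Figure D3:**
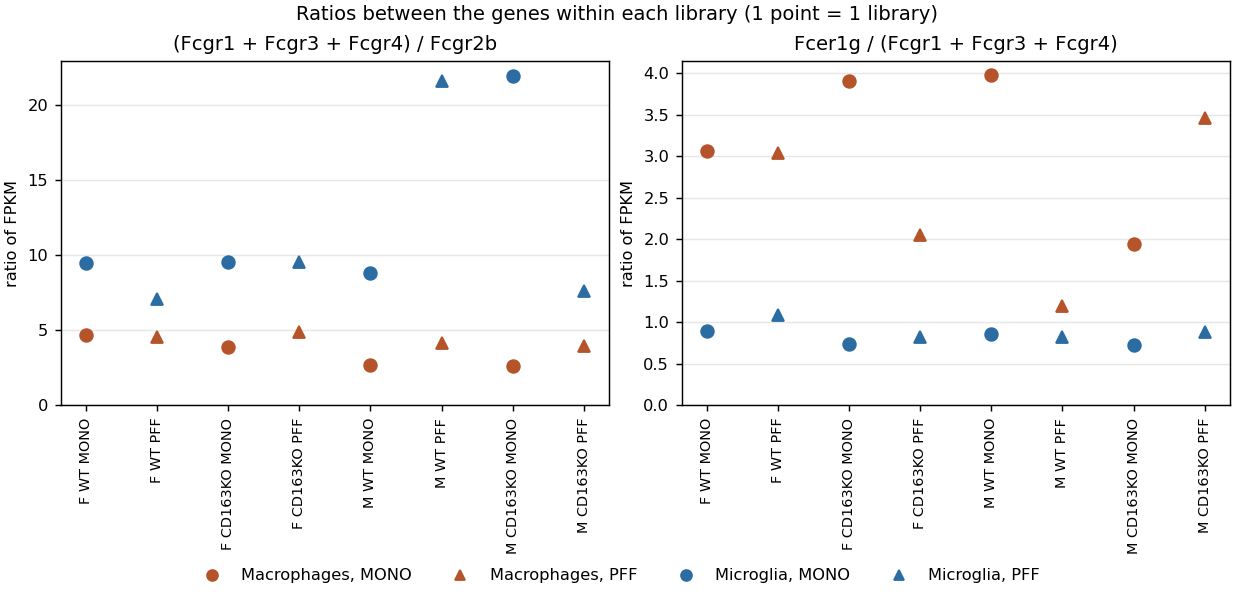
Ratio of activating receptors to Fcgr2b (left) and of Fcer1g to the activating receptors (right), from FPKM, 1 point per library. Microglia lie above all macrophages on the left, between 7.05 and 21.9, and below all macrophages on the right, between 0.72 and 1.08.

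The longer Fcgr2b transcript made up a small share of the gene, and a larger one in macrophages than in microglia. Of the estimated Fcgr2b counts, between 3.58% and 8.96% fell on it in macrophages (median 5.54%, 371 to 1774 counts) and between 0% and 2.04% in microglia (median 0.49%, up to 160 counts), with no overlap. In macrophages, the shares were 5.61% (female WT MONO), 5.80% (female WT PFF), 5.48% (female CD163KO MONO), 3.58% (female CD163KO PFF), 4.73% (male WT MONO), 7.71% (male WT PFF), 8.96% (male CD163KO MONO) and 4.54% (male CD163KO PFF). Neither treatment nor genotype ordered them. In microglia the highest share, 2.04% (95% Wilson interval 1.75% to 2.38%), was that of the library labelled female CD163KO MONO, which held Y-linked counts, followed by 0.80% in male CD163KO PFF, and the lowest macrophage share, 3.58%, had an interval of 3.24% to 3.96%.

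WT females and WT males given MONO had 0 counts of the longer transcript in microglia, which allows shares of up to 0.089% of 3380 counts and 0.071% of 4228 counts when a limit of 3 counts is set. The upper ends of the 95% Wilson intervals, set by another method, were 0.114% and 0.0908%. These intervals and limits cover counting error only, and RSEM divided the reads between the transcripts. Of the B lineage markers, Cd79a was at 0 to 996 counts in macrophages and at 0 to 6 in microglia, whereas Cd79b was at 170 to 2128 and at 369 to 1317. In the male WT PFF macrophages, with a share of 7.71%, Cd79a and Ms4a1 were at 0 counts, while Cd79b was at 775 and the plasma cell gene Jchain at 3638. The 6 genes found of the immunoglobulin and B lineage list summed to 16.8 to 161 FPKM in macrophages and 16.7 to 73.4 in microglia, and their part in these shares was not tested.

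**Figure D4:**
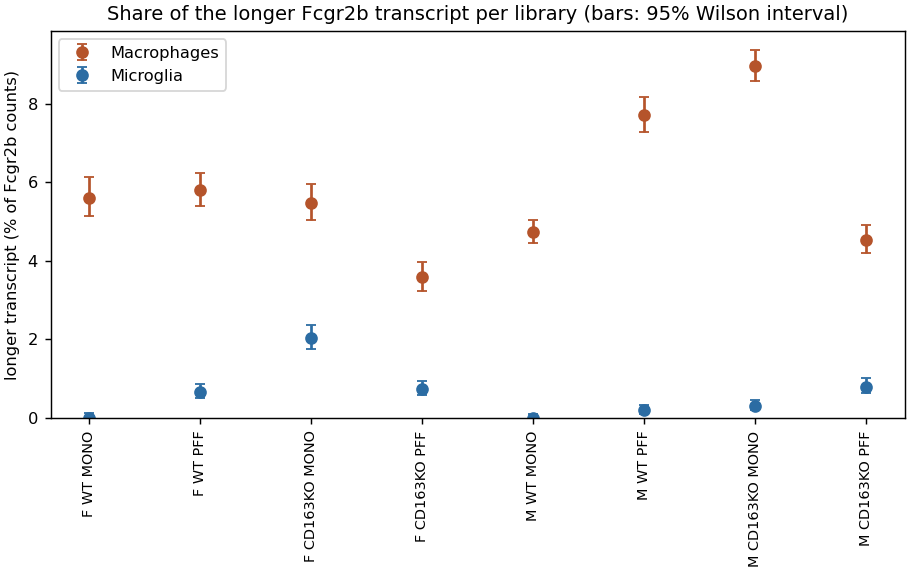
Share of the estimated Fcgr2b counts on the longer transcript in each library, in percent, with 95% Wilson intervals. All macrophage shares (3.58% to 8.96%) lie above all microglia shares (0% to 2.04%).

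The treatment comparison asked whether these genes differ between mice given PFF and mice given MONO, over sex and genotype, in 4 PFF and 3 MONO libraries per population. In neither population did any of the 6 genes pass, where 0% of the 11988 genes tested in macrophages and 0% of the 12725 tested in microglia passed in either direction with edgeR. With DESeq2, an alternative tool, 5 genes passed upward and 3 downward in macrophages, and 19 and 7 in microglia. Without adjustment, 125 genes in macrophages and 765 in microglia had a p under 0.05 with edgeR, and 0 of the 6 genes did. The fitted log2 differences (PFF minus MONO) lay between -0.13 ± 0.73 (Fcer1g) and 0.50 ± 0.31 (Fcgrt) in macrophages and between 0.26 ± 0.33 (Fcgr1) and 1.06 ± 0.85 (Fcer1g) in microglia. Standard errors of the 6 genes were between 0.29 and 1.06. Without the male WT PFF libraries the differences ranged from 0.016 (Fcgr4) to 0.58 (Fcgr3) in macrophages and from -0.060 (Fcgr3) to 0.73 (Fcgr4) in microglia, where Fcer1g was at 0.21 ± 0.22 and Fcgr1 at 0.13 ± 0.24.

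Fcer1g was the gene whose FPKM in macrophages did not overlap between treatments in the 7 libraries of the fit, which leave out male CD163KO MONO. It was at 6452 (female WT), 8535 (female CD163KO) and 7657 (male WT) with MONO, and at 5481, 6212, 2739 (male WT) and 6322 (male CD163KO) with PFF. All PFF values were below these MONO values, where 5.96% of genes showed this and 0.184% showed the opposite. The male CD163KO MONO library was at 3867 FPKM, below 3 of the 4 PFF values, so that with it the treatments overlapped. After TMM scaling the fitted difference was -0.13, and it turned to 0.04, 0.28 and 0.22 when the female CD163KO PFF, the male WT MONO or the male WT PFF library was left out. Summed neutrophil markers ranged from 98753 to 121149 FPKM in these MONO libraries and from 22182 to 134672 in the PFF libraries, and their part was not tested.

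In microglia, Fcgr4 was at 14.7, 21.96 and 15.7 FPKM with MONO (female WT, the library labelled female CD163KO, male WT) and at 28.3, 28.6 and 33.5 FPKM with PFF (female WT, female CD163KO, male CD163KO), with 3.93 FPKM in the male WT PFF library. Without that library the treatments did not overlap. Fcgr2b showed the same, at 286, 350 and 361 FPKM with MONO and 371, 390 and 400 with PFF. The male CD163KO MONO microglia, left out here, were at 9.13 FPKM of Fcgr4 and 280.0 FPKM of Fcgr2b. These are 2 of the 6 genes, where 7.24% of 12725 genes had all PFF values above all MONO values in the same 6 libraries and 7.71% had all of them below. Neither passed: the fitted log2 difference of Fcgr4 was 0.65 ± 0.39 (adjusted p = 0.79) with the male WT PFF library.

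The ratio of activating receptors to Fcgr2b moved in no common direction with PFF. In microglia it went from 9.49 to 7.05 in WT females, from 9.537, in the library labelled female CD163KO MONO, to 9.498 in CD163KO females and from 8.81 to 21.6 in WT males. In macrophages it went from 4.65 to 4.52, from 3.84 to 4.84 and from 2.67 to 4.13 in the same order. With 1 library per combination, none of these steps has a replicate.

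The genotype comparison asked whether the absence of CD163 goes with another level of these genes. None of the 6 passed in either population with edgeR. In macrophages, 0% of genes passed upward and 0.00834% downward (1 gene, Cd163 itself), and in microglia 0% in either direction, with 79 and 166 genes at an unadjusted p under 0.05 and none of the 6 among them. The fitted log2 differences (CD163KO minus WT) lay between 0.14 ± 0.32 (Fcgrt) and 0.73 ± 0.73 (Fcer1g) in macrophages and between -0.74 ± 0.87 (Fcer1g) and 0.47 ± 0.38 (Fcgr4) in microglia. Without the male WT PFF libraries they ranged from 0.099 (Fcgrt) to 0.32 (Fcgr3) in macrophages and from -0.091 (Fcgr1) to 0.36 (Fcgr4) in microglia. In FPKM, the CD163KO and WT ranges of all 6 genes overlapped in both populations, while 0.717% and 3.21% of genes were all higher and 1.38% and 0.487% all lower in CD163KO macrophages and microglia.

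**Figure D5:**
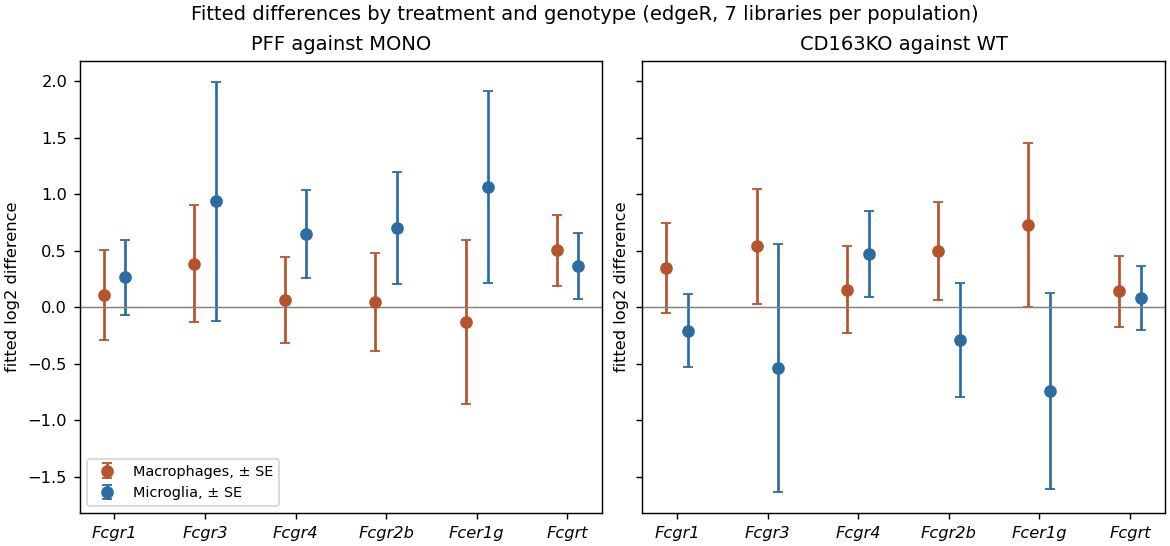
Fitted log2 differences (± SE) of PFF against MONO (left) and CD163KO against WT (right) for the 6 genes, in macrophages and microglia, from 7 libraries per population. Values lie between -0.74 and 1.06, and none passed the test.

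Whether treatment or genotype acted differently in the 2 populations was tested as an interaction over the 14 libraries. For PFF against MONO the differences between populations (microglia minus macrophages) ranged from -0.13 for Fcgrt to 1.28 for Fcer1g, and for CD163KO against WT from -1.46 for Fcer1g to 0.34 for Fcgr4. Without the male WT PFF libraries Fcer1g was at 0.057 and -0.28. None of the 6 passed, as 0% of 13704 genes did in either test with edgeR. With DESeq2, an alternative tool, 39 genes passed upward and 5 downward for treatment, and 19 and 29 for genotype. With edgeR, 122 and 84 genes had an unadjusted p under 0.05, none of them a member.

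Other genes of the pathway were taken from lists. Of 15 receptor-proximal kinases and adaptors, 2 were higher in microglia and 1 was lower under TMM scaling, with a median log2 difference of 0.31, where 6.64% of all genes were higher and 11.6% lower and the median of all genes was 0.37. Btk (1.57 ± 0.37, adjusted p = 0.011) and Blnk (0.85 ± 0.24, adjusted p = 0.030), a kinase and an adaptor also used by B cell receptors, rose, and the Src family kinase Fgr fell (-4.58 ± 0.63, adjusted p = 0.00039). With library totals 12 of the 15 were higher and 1 lower, where 41.7% of all genes were higher and 4.37% lower, and the directions of these 3 genes were the same. Fgr was at 8.09 to 103 FPKM in macrophages and 0.52 to 6.56 in microglia.

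Of 17 effectors of uptake and calcium, 10 were higher in microglia and 4 lower (all genes 6.64% and 11.6%), with a median of 0.82 (all genes 0.37). The calcium channel Itpr2 (2.81 ± 0.53, adjusted p = 0.0031) and the adaptor Card9 (3.99 ± 1.20, adjusted p = 0.040) were among the higher genes. The exchange factor Vav3 (-7.70 ± 1.23, adjusted p = 0.0010) and the GTPase Rac1 (-3.84 ± 0.97, adjusted p = 0.017), which drives the phagocytic cup, were lower. With library totals 12 of the 17 were higher and 3 lower, where 41.7% of all genes were higher and 4.37% lower.

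Of 13 inhibitory phosphatases and docking proteins, 3 were higher and 4 lower (all genes 6.64% and 11.6%), with a median of 0.10 (all genes 0.37). Lilrb4a (-5.40 ± 0.30, adjusted p = 8.7e-07) and Pirb (-2.74 ± 0.26, adjusted p = 3.1e-05), inhibitory receptors like Fcgr2b, and the docking protein Dok2 (-5.30 ± 1.58, adjusted p = 0.037) were lower in microglia, and the adaptor Pag1 (4.00 ± 0.76, adjusted p = 0.0032) was higher. With library totals 7 of the 13 were higher and 2 lower (all genes 41.7% and 4.37%), and Pirb did not pass (-1.24, adjusted p = 0.072). Inpp5d, the phosphatase that Fcgr2b recruits, named here after its values were seen, was higher in microglia (1.74 ± 0.20, adjusted p = 9.1e-05), also with library totals (3.20). Syk, the kinase that Fcer1g recruits, likewise named after its values were seen, did not pass (0.16 ± 0.24, adjusted p = 0.69) but passed upward with library totals (1.71, adjusted p = 0.026).

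Among 9 tested genes of other immunoglobulin receptors, 1 was higher and 3 were lower (all genes 6.64% and 11.6%), and 2 and 4 with library totals (all genes 41.7% and 4.37%). B2m, the partner of FcRn, was lower in microglia (-2.47 ± 0.55, adjusted p = 0.0083) as Fcgrt was, and had 3152 to 6083 FPKM in macrophages and 2267 to 3095 in microglia. The IgE receptor Fcer1a, which shares the chain Fcer1g, was lower too (-9.03 ± 1.04, adjusted p = 0.00010), at 2.81 to 95.8 FPKM in macrophages and 0 to 0.68 in microglia. Fcrl1 was higher in microglia (3.63 ± 0.77, adjusted p = 0.0062). The IgM receptor Fcmr was lower as well (adjusted p = 0.036), at 0 to 3.22 FPKM in macrophages and at 0 in all 8 microglia libraries.

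Without the male WT PFF libraries, 5 kinases and adaptors were higher and 1 lower, 12 effectors higher and 4 lower, 5 phosphatases and docking proteins higher and 4 lower, and 1 other immunoglobulin receptor higher and 4 lower, in a fit in which 16.5% of 13633 genes passed upward and 19.2% downward.

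In the treatment, genotype and interaction comparisons 0 genes of these 4 lists passed. The 2 genes of highest mean FPKM in each list were Lyn and Lat2, Rac1 and Cdc42, Sirpa and Ptpn6, and B2m and Fcrls. Their fitted log2 differences for PFF against MONO lay between -0.043 (Rac1) and 0.67 (Sirpa) in macrophages and between 0.22 (Cdc42) and 1.31 (Rac1) in microglia. For CD163KO against WT they lay between -0.23 (Ptpn6) and 1.17 (Rac1) in macrophages and between -1.31 (Rac1) and -0.071 (Ptpn6) in microglia. Without the male WT PFF libraries 0 genes of the 4 lists passed either, and Rac1 was at 0.43 and 0.34 for PFF against MONO and at 0.50 and -0.27 for CD163KO against WT, in macrophages and in microglia.

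The genes whose log2(FPKM + 1) followed a member most closely over the 16 libraries, among 4514 genes with a mean FPKM of at least 10, were Serpinf1 for Fcgr1 (Pearson's r = 0.98), Capg for Fcgr2b (0.94), Lgmn for Fcgr3 (0.93), Clec4a3 for Fcgr4 (0.94), Rac1 for Fcer1g (0.92) and Serpinb6a for Fcgrt (0.96). Next came Acp2 and Vav2 for Fcgr1, Ccr1 and Il2rg for Fcgr2b, Med16 and Cd81 for Fcgr3, Rps26 and Txn1 for Fcgr4, Lamp1 and Tmsb4x for Fcer1g, and Tmem106a and Ctsc for Fcgrt, with r between 0.88 and 0.98. These libraries share their populations and the combinations that stood apart, both of which can raise such correlations, and their part was not tested.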

How the data were processed

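Per the study's methods and the submitters' processing notes, the authors removed rRNA and low-quality reads, mapped with Bowtie2 (build mm10) and estimated expression with RSEM; versions are not given in the sources used here. The deposited tables list, per RefSeq transcript, RSEM estimated counts (expected counts, not normalized) and FPKM, scaled by the authors to transcript length and library total. Transcripts not listed were taken as 0. Both were summed per symbol (27632 of 27787 transcripts matched the GRCm38.p6 RefSeq table). Libraries held 8648751 to 21433841 estimated counts.

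Counts were rounded and tested with edgeR 4.0.16 (filterByExpr, TMM, quasi-likelihood, Benjamini-Hochberg over all genes, threshold 0.05), with limma 3.58.1, DESeq2 1.42.0 and R 4.3.3 for alternatives and Python 3.11.15 for summaries. Populations were compared with the combination as a block (6 residual degrees of freedom), treatment and genotype by additive terms of sex, genotype and treatment (3). Standard errors given with edgeR were derived from the test, as the absolute log2 difference divided by the square root of its F statistic. Groups hold 1 library per combination, so p-values measure the spread between these libraries, which may be technical. The study names batches 1 and 2 without assigning libraries, so batch and group cannot be told apart. On simulated counts, 100% of 200 changed genes were recovered with 9 false calls in both designs tried (population block, macrophages). The planted changes were larger than any treatment or genotype difference fitted for the 6 genes. They were placed in well-counted genes at a fixed spread. This recovery therefore does not show how often smaller differences would be found.

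The members, lists and comparisons were chosen with earlier results of these data known. Named were the members, up to 4 genes per list with the largest difference among those that passed (else the 2 with the highest mean FPKM), and the 3 most alike genes. Sequences came from GENCODE M21 transcripts (GRCm38). Alternatives were DESeq2 size factors, library totals, no low count filter, DESeq2, limma on log2(FPKM + 1) (pseudocount 1), all 16 libraries, and leaving out each library; leaving out the male WT PFF libraries was added after seeing the data.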

Additional observations from a re-analysis of the deposited data

Results flagged for a closer look

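Fcer1g was lower with PFF than with MONO in macrophages and higher in microglia in each of the 3 matched pairs without the excluded libraries (WT females, CD163KO females, WT males). The mean log2 ratio of FPKM was -0.73 in macrophages and 0.45 in microglia, a difference of 1.18. The interaction fitted on TMM-scaled counts was 1.28 ± 1.48 (edgeR, adjusted p = 1.0), so the difference between the populations did not pass the test. The macrophage mean rests in part on WT males, whose PFF library stood apart (log2 ratio -1.48, against -0.46 and -0.24 in the female pairs), and so does the microglia mean (0.80, against 0.31 and 0.23). Without WT males the means were -0.35 and 0.27, a difference of 0.62, and the fitted interaction without the male WT PFF libraries was 0.057 ± 0.60; this was added after seeing the data. The microglia library labelled female CD163KO MONO, in which Y-linked genes were counted, enters the pair of CD163KO females. In CD163KO males, whose MONO libraries were left out, both directions were the other way round (log2 ratio 0.71 in macrophages and -0.72 in microglia). Of the 14 sets of pairs examined, this was the only one in which all 3 pairs shared one sign in macrophages and the opposite sign in microglia. The share of all genes with such a pattern was not counted, so it cannot be told whether Fcer1g is unusual in this.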

How the results depend on the processing

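The number of the 6 genes that passed was 4 between the populations and 0 in each of the 6 other comparisons, and no alternative moved it by over 1.5 times (3 to 5 between the populations with each library left out). Which genes passed did depend on scaling: with library totals Fcgr3 turned to 0.64, as it did with limma on log2(FPKM + 1) (0.64), and Fcgr1 passed upward under both, while Fcgr2b and Fcgr4 lost their calls. With 1 pair of libraries left out (leaving out either library removes its pair from the block fit), the population differences ranged from 0.22 to 0.54 for Fcgr1, -2.46 to -1.97 for Fcgr2b, -1.38 to -0.72 for Fcgr3, -2.43 to -2.19 for Fcgr4, -3.21 to -2.51 for Fcer1g and -2.90 to -2.70 for Fcgrt. In the other comparisons some differences that had not passed changed sign. Fcer1g (PFF against MONO, macrophages) was 0.23 with the male CD163KO MONO library and 0.22 without the male WT PFF library. Fcgrt (CD163KO against WT, macrophages) was -0.29 with library totals and -0.27 with limma. Fcgr1 (PFF against MONO, microglia) was -0.31 with library totals, -0.35 with limma and -0.029 with the male CD163KO MONO library. Fcer1g (CD163KO against WT, microglia) was 0.023 without the male WT PFF libraries. With 1 library left out, Fcer1g ranged from -1.48 to 0.28 (PFF against MONO, macrophages), from -0.083 to 1.96 (CD163KO against WT, macrophages) from -1.72 to 0.13 (CD163KO against WT, microglia) and from 0.21 to 2.04 (PFF against MONO, microglia, lowest without the male WT PFF library and highest without the library labelled female CD163KO MONO), and Fcgr1 from 0.056 to 0.45 (PFF against MONO, microglia). The cause was not tested. Ratio medians with estimated counts in place of FPKM were 3.86 and 9.32, and without both combinations that stood apart 4.23 and 9.15. The fit with additive terms in place of the block also called 4 genes. Populations were paired by combination of sex, genotype and treatment; no paired analysis was possible by replicate number because the labels carry none. With 1 library per combination and 3 residual degrees of freedom, treatment and genotype effects had standard errors of up to 1.10 on the log2 scale.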
